A study of Mus musculus with 9 samples.

Results

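The stefin A genes Stfa1, Stfa2, Stfa2l1 and Stfa3 were taken by their symbols from a table of 24532 mouse genes, and all 4 were present. They were followed in keratinocytes from the skin of C57BL/6 mice at postnatal day 1, day 7 and day 14, with 3 RNA-seq libraries at each day and 9 in all. The labels name no treatment and no altered allele in any group, and they give neither the sex of the animals nor whether a library came from 1 animal or a pool, so p-values measure the spread between libraries, which may be technical. The sort kept live skin cells that lacked CD45.2, a leukocyte surface protein. No keratinocyte marker was selected, so other cells of the skin that lack CD45.2 could be among them. The genes were selected on their counts over the 3 days, which were known beforehand. Their levels and differences are therefore given as a description, without a test.

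Stefins are small cystatins that stay inside the cell and block cysteine proteases of the papain family, such as the lysosomal cathepsins, by pushing a conserved loop into the active site. In humans a single gene, CSTA, encodes stefin A, which is abundant in the upper epidermis and is built into the cornified envelope, and its loss causes a peeling skin disease. Mice carry a row of stefin A genes in its place, some of which are also known from neutrophils and bone marrow.

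In the RefSeq annotation of GRCm38.p6, the assembly called mm10, the cluster lay on chromosome 16 between 36119946 and 36455392, a stretch of 335 kb. It held 12 protein-coding genes, of which 10 were in the count table, and those 10 were all stefin A genes. Stfa2l1 lay at 36156811 to 36161948 and Stfa1 at 36277148 to 36285371, both on the forward strand. Stfa2 at 36403946 to 36408363 and Stfa3 at 36450537 to 36455392 lay on the reverse strand, and Stfa3 was the last gene of the row. Each of the 4 had 3 exons. The GENCODE M21 transcripts encoded 97 residues for Stfa1 and 103 residues for Stfa2, Stfa2l1 and Stfa3.

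How alike the copies are decides which values can be read singly, so the codons of the protease-binding loop are shown first. The lines give 45 coding bases of each gene from the GENCODE M21 transcripts, 5′ to 3′, and the capitals mark the codons of the cystatin QxVxG loop, which was found at 1 place in the coding sequence of each of the 10 stefin A genes.
Stfa1: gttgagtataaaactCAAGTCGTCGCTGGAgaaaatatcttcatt
Stfa2: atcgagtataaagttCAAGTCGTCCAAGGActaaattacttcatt
Stfa2l1: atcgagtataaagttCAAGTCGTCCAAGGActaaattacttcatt
Stfa3: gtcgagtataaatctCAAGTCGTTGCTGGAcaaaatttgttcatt
Stfa2 and Stfa2l1 differed at 0 of these 45 bases. Stfa1 and Stfa3 differed at 6 of the 45, and at 1 of the 15 in capitals.

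Over the whole coding sequence Stfa2 and Stfa2l1 were identical at 96.5% of aligned bases, and Stfa1 was identical to BC100530 (RefSeq Cstdc5) at 98.0%. Stfa3 reached at most 81.7%, with Stfa2l1. Of the 50-base windows of the Stfa3 transcript, 0 of 363 occurred in any other of the 10 stefin A transcripts, against 26.9% of the windows of Stfa1, 14.7% of Stfa2 and 16.8% of Stfa2l1. Cstdc3 and Gm7260, the protein-coding genes of the row that were not counted, were not compared. Whether Stfa3 shares stretches with them is therefore not known. The way reads of shared stretches were assigned is not given in the sources used here. The values of Stfa1, Stfa2 and Stfa2l1 are therefore uncertain singly, and sums are given beside them.

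The regions around the transcription starts are shown because the 4 genes were low together at day 14. Each line is the RefSeq window of GRCm38.p6 from 250 bases before the annotated start to 50 bases after it, on the strand of the gene. Windows were found for 9 of the 10 stefin A genes. The capitals mark ACCTTTAAAACCC in every line. Near the end of the Stfa3 line, past the annotated start, they also mark TGAGTCA. This is the binding sequence of AP-1, a transcription factor family active in epidermis.
Stfa1 (chr16:36276898-36277197, plus strand): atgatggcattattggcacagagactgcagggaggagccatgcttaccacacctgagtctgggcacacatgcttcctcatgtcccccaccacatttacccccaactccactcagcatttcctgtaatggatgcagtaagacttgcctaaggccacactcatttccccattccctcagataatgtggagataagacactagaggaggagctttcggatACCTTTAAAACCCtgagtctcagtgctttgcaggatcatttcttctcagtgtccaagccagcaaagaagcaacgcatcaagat
Stfa2 (chr16:36408314-36408613, minus strand): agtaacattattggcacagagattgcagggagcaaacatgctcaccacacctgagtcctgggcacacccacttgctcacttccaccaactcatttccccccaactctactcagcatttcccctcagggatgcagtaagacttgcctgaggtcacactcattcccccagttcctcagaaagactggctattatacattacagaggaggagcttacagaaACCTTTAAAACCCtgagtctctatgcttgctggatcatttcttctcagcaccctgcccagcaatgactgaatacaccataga
Stfa2l1 (chr16:36156561-36156860, plus strand): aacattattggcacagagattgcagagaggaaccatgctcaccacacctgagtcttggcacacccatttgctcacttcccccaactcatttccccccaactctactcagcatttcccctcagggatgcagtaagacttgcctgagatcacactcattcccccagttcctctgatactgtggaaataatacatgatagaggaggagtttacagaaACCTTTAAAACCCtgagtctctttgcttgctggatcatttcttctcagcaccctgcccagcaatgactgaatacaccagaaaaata
Stfa3 (chr16:36455343-36455642, minus strand): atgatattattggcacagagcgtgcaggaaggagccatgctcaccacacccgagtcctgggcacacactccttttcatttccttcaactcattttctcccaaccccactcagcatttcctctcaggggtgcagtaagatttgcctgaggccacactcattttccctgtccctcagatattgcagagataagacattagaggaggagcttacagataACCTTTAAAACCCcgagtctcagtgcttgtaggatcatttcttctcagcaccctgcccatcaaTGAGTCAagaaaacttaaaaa
The Stfa3 window was identical to that of Stfa1 at 80.6% of aligned bases, to that of Stfa2 at 80.9% and to that of Stfa2l1 at 81.0%, and the windows of Stfa2 and Stfa2l1 at 90.5%.

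The longest runs of letters found in at least 7 of the 9 stefin A windows were 13 bases long. There were 3 of them, and ACCTTTAAAACCC, the first by alphabet, is the one shown. Its last base was between bases 227 and 231 of the 4 windows. Searched on both strands, it overlapped no other motif searched and was in 7 of the 9 stefin A windows, against 9 of the 32851 windows of all genes (0.0274%). It was missing from the windows of the stefin A genes Csta1 and 2010005H15Rik, which were low at day 14 as well. TATAAA, the common form of the TATA box, was in 0 of the 9, against 13.6% of all windows. Other forms of the TATA box were not searched. TGAGTCA or its reverse TGACTCA was in 1 of the 9, that of Stfa3, against 5.20% of all windows. That match lay at bases 280 to 286 of the window, past the annotated start and so within the transcript. With the base before it, the match begins with ATG, which may be the start codon. The C/EBP sequence TTGCGCAA and the Grhl sequence AACCGGTT were in 0 of the 9, against 0.183% and 0.146% of all windows. The run was taken from these same windows, so its count is a description, and a match is not a binding site.

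The libraries held from 50670191 to 62970768 counts, and the 4 genes together took from 0.150% to 0.210% of them at days 1 and 7, and from 0.00288% to 0.00319% at day 14. The keratinocyte labels were checked with Krt5 and Krt14, keratins of the basal layer, which averaged 21977 and 12762 CPM at day 1, 22461 and 10471 CPM at day 7, and 15522 and 7058 CPM at day 14. CPM is the count scaled to a library of fixed size, after TMM scaling. Krt1 and Krt10, keratins of the layers above, averaged 6622 and 5608 CPM at day 1, 6323 and 5490 CPM at day 7, and 3369 and 7013 CPM at day 14. The 10 genes of the keratinocyte list summed to 58084, 64142 and 50283 CPM on average over days 1, 7 and 14. By edgeR's test (adjusted p under 0.05), 5 rose and 2 fell in day 7 against day 1. In day 14 against day 7, 3 rose and 4 fell, and in day 14 against day 1, 5 rose and 3 fell. Their median log2 fold changes were 0.11, -0.04 and 0.30. Of all genes, 49.4%, 67.6% and 73.9% were called in either direction in these comparisons. The leukocyte gene Ptprc, which encodes CD45, stayed at or below 0.180 CPM in the 9 libraries. Ly6g, Ngp, Camp and Mpo, which mark neutrophils and their precursors, had 0 counts in each library. Of 18 neutrophil genes listed, 13 had 0 counts throughout, and the list summed to at most 1.48 CPM in any library.

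Transcripts that mark other cell types also differed between the days. The 7 melanocyte genes summed to between 373 and 401 CPM at day 1, between 106 and 130 CPM at day 7 and between 14.98 and 19.1 CPM at day 14, with Dct, a melanin synthesis enzyme, at 199, 62.6 and 3.88 CPM on average over those days. In edgeR's test 7 of 7 fell in day 7 against day 1, where 24% of all genes were called lower. In day 14 against day 7, where 35.1% were, 6 fell and 1 rose, which was Mitf, a regulator of melanocyte genes named here after its values were seen. The 7 fibroblast genes summed to between 122 and 226 CPM at day 1, between 17.2 and 62.1 CPM at day 7 and between 17.0 and 38.0 CPM at day 14. The proteoglycan gene Dcn made up 107, 11.5 and 6.79 CPM of these sums on average, and the collagen gene Col1a1 7.61, 4.35 and 6.56 CPM. No fibroblast gene rose in any comparison, and 2 of the 7 fell in day 7 against day 1 and in day 14 against day 1. The 6 endothelial genes stayed at or below 1.70 CPM in sum, with Pecam1 at 0.839, 0.525 and 0.519 CPM on average over days 1, 7 and 14. The 10 inner root sheath genes summed to between 194 and 211 CPM at day 1, between 241 and 288 CPM at day 7 and between 466 and 483 CPM at day 14. Gata3, a transcription factor gene that other keratinocytes of the epidermis express too, made up 169, 229 and 441 CPM of these sums on average. Of the sheath keratin genes, Krt71 averaged 0.497, 4.88 and 3.58 CPM and Krt73 6.69, 3.05 and 0.851 CPM. Of 8 sheath genes tested, 2 rose in day 7 against day 1, 1 rose in day 14 against day 7, and 3 rose and 2 fell in day 14 against day 1. The 14 other leukocyte genes summed to between 33.3 and 39.7 CPM at day 1, between 7.31 and 9.26 CPM at day 7 and between 13.6 and 15.7 CPM at day 14. Kit, which melanocytes express too, made up 30.4, 4.79 and 1.65 CPM of these sums on average. Of 6 of these leukocyte genes tested, 1 rose and 3 fell in day 7 against day 1. In day 14 against day 7, 4 rose and 1 fell, and in day 14 against day 1, 4 rose and 1 fell. The fall of the sum from day 1 was thus not shared by most of the genes tested at day 14. Dcn, Gata3, Krt73 and Kit were named after their values were seen. Their part in the stefin A values was not tested. In bulk samples, fewer cells of a type and less RNA per cell cannot be told apart.

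Sex-linked transcripts also split the libraries, a pattern noticed after the values were seen. Xist, from the inactive X chromosome of females, had 0 counts in the 3 libraries of day 7 and at least 53509 in each of the others. Ddx3y, on the Y chromosome, had 0 counts in the 3 libraries of day 14 and at least 1781 in each of the others. Each day thus had its own pattern of this pair, and age and these transcripts cannot be told apart in any of the 3 comparisons. The libraries of day 7 also carry headers of another style than those of days 1 and 14.

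Stefin A transcripts were abundant at days 1 and 7 and low at day 14. Summed over the 4 genes, the level averaged 1564 ± 174 CPM in the day 1 libraries, 1969 ± 80.8 CPM in those of day 7 and 33.6 ± 1.63 CPM at day 14 (SD, n = 3 libraries each). Against day 7, the sum at day 14 was 58.6-fold lower, with a log2 fold change of -5.87 ± 0.09 (SE). Against day 1, the sum at day 14 was 46.6-fold lower, with a log2 fold change of -5.54 ± 0.09. At day 7 it was 1.26-fold the level of day 1, a log2 fold change of 0.33 ± 0.07. With all 10 stefin A genes summed, the corresponding averages were 2410, 2602 and 49.8 CPM, and the log2 fold change of day 7 against day 1 was 0.11 ± 0.07.

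Stfa3 carried most of the signal. Its counts were 73400, 87300 and 80744 at day 1, then 108564, 115121 and 93602 at day 7, and 1473, 1540 and 1347 at day 14, which scaled to 1085, 1404 and 1314 CPM, to 1714, 1877 and 1810 CPM, and to 29.4, 29.0 and 26.8 CPM. The lowest library of day 7 lay above the highest of day 1, and the 3 libraries of day 14 lay far below both groups. The log2 fold change was 0.51 ± 0.08 (SE) for day 7 against day 1, -5.99 ± 0.10 for day 14 against day 7, and -5.48 ± 0.10 for day 14 against day 1.

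Stfa1 was highest at day 1 instead. It had 18810, 18320 and 18556 counts at day 1, 10722, 10290 and 8520 counts at day 7, and 299, 220 and 271 counts at day 14. These scaled to 278, 295 and 302 CPM, to 169, 168 and 165 CPM, and to 5.97, 4.15 and 5.39 CPM. No library of a day overlapped those of another day, and the libraries of day 7 lay below those of day 1, the reverse of Stfa3. The log2 fold change of Stfa1 was -0.80 ± 0.09 for day 7 against day 1, -5.02 ± 0.11 for day 14 against day 7, and -5.82 ± 0.12 for day 14 against day 1.

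Stfa2 had 357, 199 and 242 counts at day 1, 94, 70 and 84 counts at day 7, and 0 counts in each library of day 14. In CPM it averaged 4.14 ± 1.05 at day 1 and 1.42 ± 0.25 at day 7 (SD, n = 3 each). The libraries of day 7 lay below those of day 1, with a log2 fold change of -1.55 ± 0.25. Taking 3 counts per library as the floor, which is at most 0.0599 CPM, Stfa2 at day 14 was at least 24.1-fold lower than at day 7 and at least 70.5-fold lower than at day 1. Floors and intervals cover counting error only.

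Stfa2l1 was close to the limit of detection throughout. It had 11, 8 and 8 counts at day 1, 3, 0 and 0 counts at day 7, and 0 counts in each library of day 14, and it did not pass the filter on low counts, which the other 3 genes passed. At day 14 it was at least 2.39-fold lower than at day 1. Against day 7, where it was at or under the floor too, no fold is given.

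**Figure D1:**
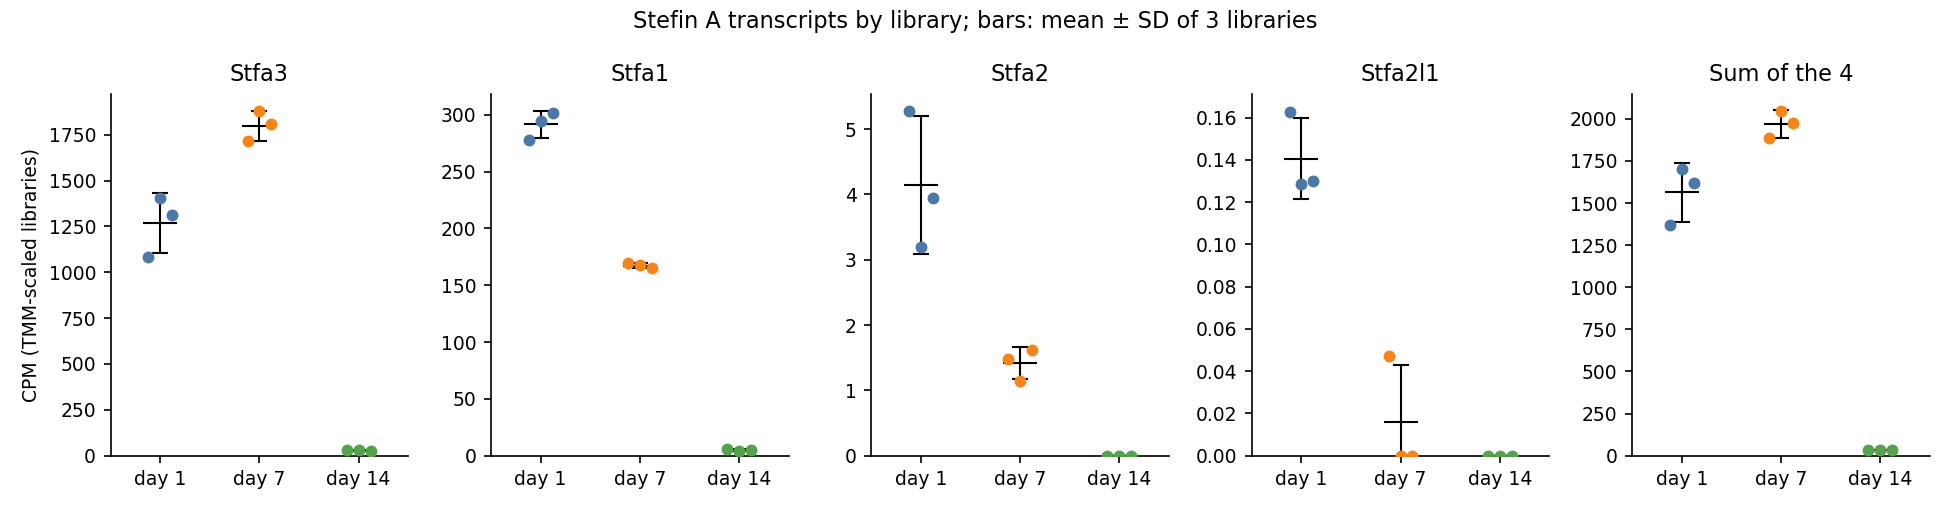
Level of Stfa3, Stfa1, Stfa2, Stfa2l1 and their sum in CPM (y axis, a separate linear scale in each panel) at postnatal days 1, 7 and 14 (x axis). Each point is 1 library, and the bars are the mean and SD of 3 libraries. The sum lies between 1369 and 2046 CPM at days 1 and 7 and between 32.2 and 35.4 CPM at day 14.

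Because Stfa3 was higher and Stfa1 lower at day 7 than at day 1, the make-up of the sum differed between the days. The share of Stfa3 in the summed counts was 79.3%, 82.5% and 81.1% in the libraries of day 1, 90.9%, 91.7% and 91.6% in those of day 7, and 83.1%, 87.5% and 83.3% in those of day 14. The 95% Clopper-Pearson interval was 79.0% to 79.5% for the lowest library of day 1 and 85.9% to 89.0% for the highest of day 14. Stfa1 made up 18.8 ± 1.51% at day 1, 8.51 ± 0.42% at day 7 and 15.4 ± 2.49% at day 14 (SD, n = 3 each). Stfa2 contributed 0.272% on average at day 1 and 0.0722% at day 7. The ratio of Stfa3 counts to Stfa1 counts was 4.34 ± 0.43 at day 1, 10.8 ± 0.56 at day 7 and 5.63 ± 1.18 at day 14. The ratios of day 7 lay above those of both other days. The ratio of counts does not correct for length, which is the same in every library.

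**Figure D2:**
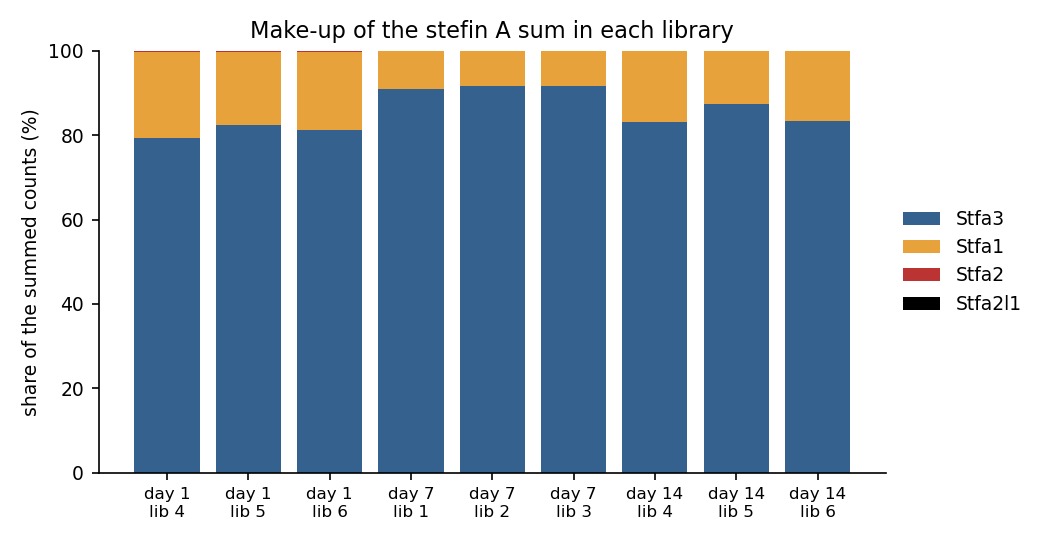
Share of Stfa3, Stfa1, Stfa2 and Stfa2l1 in their summed counts (y axis, percent) in each library (x axis, day and library number). Stfa3 takes from 79.3% to 82.5% at day 1, from 90.9% to 91.7% at day 7 and from 83.1% to 87.5% at day 14.

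The levels of the stefin A genes were compared with each other after division by transcript length, taken from the longest matched transcript. On the scale of CPM per kb, Stfa3 averaged 3077 ± 399 at day 1, 4370 ± 199 at day 7 and 69.0 ± 3.42 at day 14, and it was the highest of the 10 stefin A genes in each library. BC100530 came next with 1251 ± 29.1, 954 ± 14.3 and 22.3 ± 4.25 CPM per kb, then Stfa1 with 473 ± 19.7, 271 ± 3.72 and 8.38 ± 1.51. BC117090 (RefSeq Cstdc6) followed with 80.4, 54.7 and 1.10 CPM per kb over the same days, and Csta1 with 13.8, 7.48 and 0.723. Neighbours among these 5 genes did not overlap at days 1 and 7. At day 14 BC117090 had 0 counts in 1 library, library 5, and overlapped Csta1 in this order. The lengths were 2783 bases for Csta1 and 387 for BC117090. Without division, Csta1 averaged 38.3, 20.8 and 2.01 CPM over days 1, 7 and 14, and BC117090 31.1, 21.2 and 0.425 CPM. Their order at days 1 and 14 thus depended on the lengths taken. Stfa2 averaged 8.79 CPM per kb at day 1 and 3.01 at day 7, and Stfa2l1 0.335 and 0.0377. Between them stood Gm5416 (RefSeq Csta3), Gm5483 (Cstdc4) and 2010005H15Rik (Csta2), with 4.29, 2.73 and 0.519 CPM per kb at day 1. In this lower part of the order Gm5416 and Gm5483 overlapped only at day 7, while 2010005H15Rik and Stfa2l1 lay next to each other without overlap at day 1 and overlapped at day 7.

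The 6 other stefin A genes were tested, since they are not among the 4, but those that share stretches with Stfa1, Stfa2 or Stfa2l1 may share reads with them. In day 7 against day 1, 0 rose and 5 fell, by edgeR's quasi-likelihood test with an adjusted p under 0.05 over the 14507 genes tested. The background in that comparison was 25.5% of genes called higher and 24% called lower. Their median log2 fold change was -1.55, against -0.0005 over all genes tested. In day 14 against day 7, 6 of 6 fell, with 35.1% of all genes called lower and 32.5% called higher. In day 14 against day 1, 6 of 6 fell again, with 38.4% called lower and 35.5% called higher. Their median was -5.54 in day 14 against day 7 and -6.74 in day 14 against day 1, against -0.03 and -0.05 over all genes. With the 3 genes that had 0 counts at day 14 set to their bounds, these medians were -2.62 and -4.35. Those genes, Gm5416, Gm5483 and 2010005H15Rik, passed the filter on low counts only through day 1, where they were highest. Their falls against day 1 were thus favoured by the filter and are a description. Without this limit, BC100530 and Csta1 fell in day 7 against day 1, and BC100530, BC117090 and Csta1 fell at day 14. Under scaling by library totals alone the counts of these 6 genes were the same.

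BC100530, the copy most like Stfa1 in coding sequence, had 52330, 47023 and 48701 counts at day 1, 37301, 36830 and 30152 counts at day 7, and 838, 616 and 659 counts at day 14. No day overlapped another. It fell at day 14 against day 7 with a log2 fold change of -5.42 ± 0.13 (edgeR adjusted p = 9.1e-10), and at day 7 against day 1 with -0.39 ± 0.10 (edgeR adjusted p = 0.011). Its ratio to Stfa1 in counts was 2.66 ± 0.11 at day 1, 3.53 ± 0.05 at day 7 and 2.68 ± 0.21 at day 14. The counts of this pair thus stood in nearly the same ratio at days 1 and 14, and in a higher one at day 7. Their transcripts share a run of 128 bases, so counts and ratio may depend on how reads of shared stretches were assigned.

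Csta1, at the far end of the row from Stfa3, fell by a smaller fold. It had 96, 95 and 117 counts at day 14, against 1324, 1254 and 1090 at day 7, a log2 fold change of -3.37 ± 0.10 (edgeR adjusted p = 1.5e-10). Against day 1, with 2353, 2458 and 2496 counts, the log2 fold change was -4.25 ± 0.10 at day 14 and -0.88 ± 0.08 at day 7. Its ratio to Stfa1 was 0.131 at day 1, 0.124 at day 7 and 0.395 at day 14. Whether its fall differed from that of the others was not tested.

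BC117090 had 2049, 1956 and 1938 counts at day 1, 1435, 1250 and 1061 counts at day 7, and 34, 0 and 30 counts at day 14. It fell at day 14 against day 7 with a log2 fold change of -5.65, or -5.06 without library 5 of day 14, which held the 0. In day 7 against day 1 it did not pass, with a log2 fold change of -0.55 ± 0.32 (edgeR adjusted p = 0.20), and without the same library that comparison gave the same fold with an adjusted p of 5.3e-05 in edgeR. Gm5416, Gm5483 and 2010005H15Rik had 0 counts in each library of day 14. In single libraries, Gm5416 had between 5 and 17 counts at day 7, against between 65 and 98 at day 1. Gm5483 had 7 or 8 counts at day 7, against between 59 and 92 at day 1, and 2010005H15Rik had between 2 and 6, against between 17 and 27. Each fell at day 7 against day 1, by 2.55, 3.16 and 2.23 on the log2 scale, after passing the filter on low counts only through day 1. The edgeR call of 2010005H15Rik (adjusted p = 0.019) was lost without library 5 or 6 of day 1 or library 1 or 2 of day 7 (adjusted p from 0.053 to 0.083).

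The genes on either side of the row differed less between the days or had low counts. Of 3 neighbours on the Csta1 side, Fam162a, a mitochondrial protein gene, fell to 59.7 ± 0.69 CPM at day 14, against 157 ± 4.88 at day 7 (log2 fold change -1.39 ± 0.06, edgeR adjusted p = 2.7e-09). Ccdc58 fell to 11.8 ± 0.49 CPM, against 17.9 ± 1.39 at day 7 (-0.60 ± 0.07, edgeR adjusted p = 1.8e-05). Wdr5b averaged 3.18 CPM at day 14 and 3.87 CPM at day 7 and did not pass (edgeR adjusted p = 0.16), but passed under library totals alone, with a log2 fold change of -0.46 (edgeR adjusted p = 0.033). On the Stfa3 side the calcium-sensing receptor gene Casr had 0 counts at day 14, against 8 or 9 per library at day 7, and fell (edgeR adjusted p = 0.0043), at least 2.54-fold. Cd86, with at most 10 counts in any library, was not tested, and Ildr1, a tricellular junction gene, averaged 1.85 CPM at day 14 and 1.38 CPM at day 7 (edgeR adjusted p = 0.20).

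**Figure D3:**
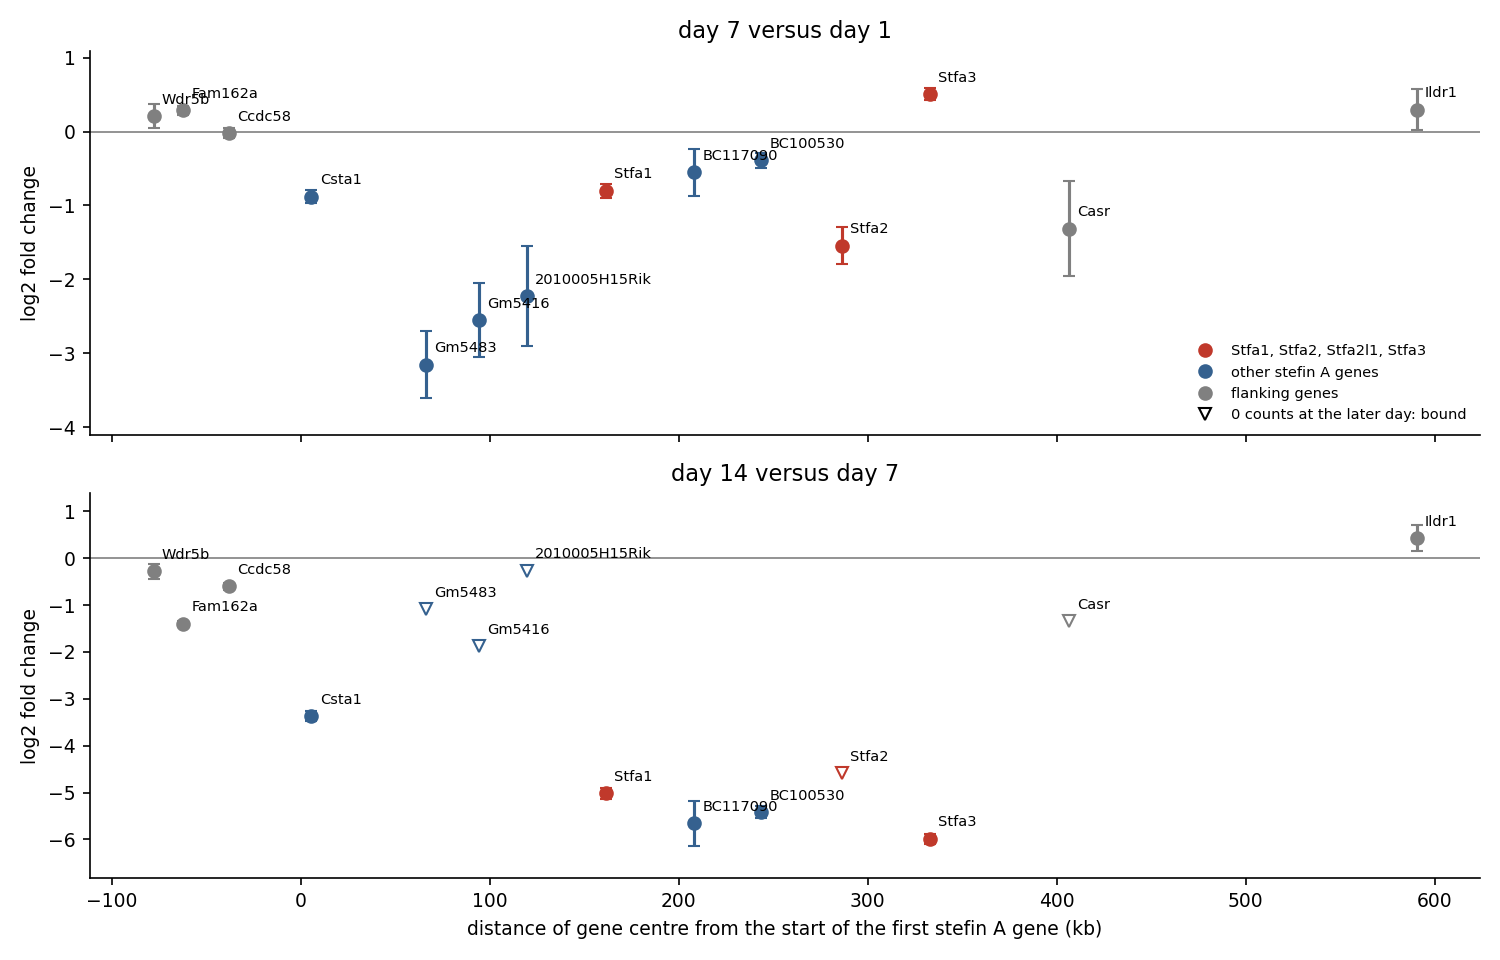
Log2 fold change with SE (y axis) of the stefin A genes and their neighbours by distance from the start of the first stefin A gene (x axis, kb), for day 7 against day 1 above and day 14 against day 7 below. Red marks the genes Stfa1, Stfa2 and Stfa3, blue the other stefin A genes and grey the neighbours; Stfa2l1 and Cd86 are not drawn because of their low counts, and open triangles are bounds for genes with 0 counts at day 14. Stfa3 is the only stefin A gene drawn above 0 in the upper panel (0.51), and in the lower panel Stfa3 (-5.99), BC117090 (-5.65), BC100530 (-5.42) and Stfa1 (-5.02) lie lowest.

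The 4 other cystatin genes that could be tested rose in day 14 against day 1. Of 17 other cystatin genes, 4 passed the filter on low counts and 10 had 0 counts in all 9 libraries. Those 4 rose in day 7 against day 1 as well, and 3 of them rose in day 14 against day 7, with 25.5% and 32.5% of all genes called higher in these comparisons and 35.5% in day 14 against day 1. Their median log2 fold change was 1.26 in day 7 against day 1, 0.75 in day 14 against day 7 and 1.93 in day 14 against day 1. Cstb, which encodes stefin B, the other mouse stefin, had 46.9, 49.1 and 49.7 CPM at day 1, 80.6, 68.0 and 71.2 CPM at day 7, and 105, 108 and 95.05 CPM at day 14. No day overlapped another, and the log2 fold change was 0.49 ± 0.07 at day 14 against day 7 and 0.59 ± 0.07 at day 7 against day 1 (edgeR adjusted p = 3.9e-05 and 1.7e-05).

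Cst3 encodes cystatin C, a secreted inhibitor of cathepsins. It rose to 315 ± 25.3 CPM at day 14, against 248 ± 11.9 at day 7 (0.35 ± 0.07, edgeR adjusted p = 0.00063), and against 132 ± 9.37 at day 1 (1.26 ± 0.07). Cst6 encodes cystatin M/E, which inhibits legumain and cathepsins L and V in human skin and without which mouse epidermis cornifies abnormally. It rose to 106 ± 17.9 CPM at day 14, against 50.1 ± 8.75 at day 7 (1.08 ± 0.22, edgeR adjusted p = 0.0035), and at day 7 it stood 8.13-fold above day 1, where it averaged 6.17 ± 1.71 CPM. Fetub, a fetuin, stayed at or below 1.42 CPM in each library. It rose in day 7 against day 1 (edgeR adjusted p = 0.034), a call lost without library 4 or 6 of day 1 or library 1 or 3 of day 7.

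Summed per transcript length, Cstb, Cst3 and Cst6 averaged 236 ± 13.2 CPM per kb at day 1, 422 ± 19.3 at day 7 and 564 ± 43.8 at day 14. The 10 stefin A genes summed to 4912 ± 411, 5662 ± 203 and 101 ± 7.85 CPM per kb over those days. At day 14 each library held more of the other inhibitors than of stefin A per length, and at days 1 and 7 each held more stefin A. This order compares transcripts and says nothing of protein.

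The proteases that stefins and other cystatins inhibit moved in both directions. Of 19 genes listed, the cysteine cathepsins and legumain, 10 passed the filter on low counts, and their log2 fold changes lay between -1.15 and 2.09. In day 7 against day 1, 4 rose and 3 fell, with a median log2 fold change of -0.12. In day 14 against day 7, 6 rose and 2 fell, with a median of 0.45, and in day 14 against day 1, 8 rose and 2 fell, with a median of 0.59. Of all genes, 49.4%, 67.6% and 73.9% were called in either direction in these comparisons. Under scaling by library totals alone, 5 rose and 4 fell in day 14 against day 7, and 6 rose and 2 fell in day 14 against day 1.

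Ctsb, which encodes the lysosomal protease cathepsin B, averaged 267 ± 11.3 CPM in the libraries of day 1, 430 ± 15.9 in those of day 7 and 413 ± 5.88 in those of day 14. It rose in day 7 against day 1 (0.69 ± 0.05, edgeR adjusted p = 1.7e-07), and in day 14 against day 7 its log2 fold change was -0.06 ± 0.05 (edgeR adjusted p = 0.26). Under scaling by library totals alone that difference was -0.23 and passed (edgeR adjusted p = 0.000504). Ctsl, which encodes cathepsin L, a protease of keratinocyte lysosomes and of hair follicle cycling, rose to 158 ± 6.88 CPM at day 14, against 76.1 ± 4.54 at day 7 (1.06 ± 0.06, edgeR adjusted p = 2.4e-08). At day 7 it was below day 1, where it averaged 108 ± 7.54 CPM. Ctsh, an aminopeptidase, fell to 63.7 ± 1.92 CPM at day 14, against 77.5 ± 3.53 at day 7 (-0.28 ± 0.05), and Ctsc, which activates granule proteases, fell at day 7 to 105 ± 6.76 CPM, against 135 ± 14.6 at day 1 (-0.36 ± 0.08). Ctsf rose to 31.2 ± 1.02 CPM at day 14, against 15.6 ± 0.55 at day 7 (1.00 ± 0.08). Ctso also rose at day 14 against day 7 (0.64 ± 0.09). Lgmn, which encodes legumain, rose by 0.27 ± 0.07 in that comparison, and by 0.09, past no threshold, under library totals alone.

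**Figure D4:**
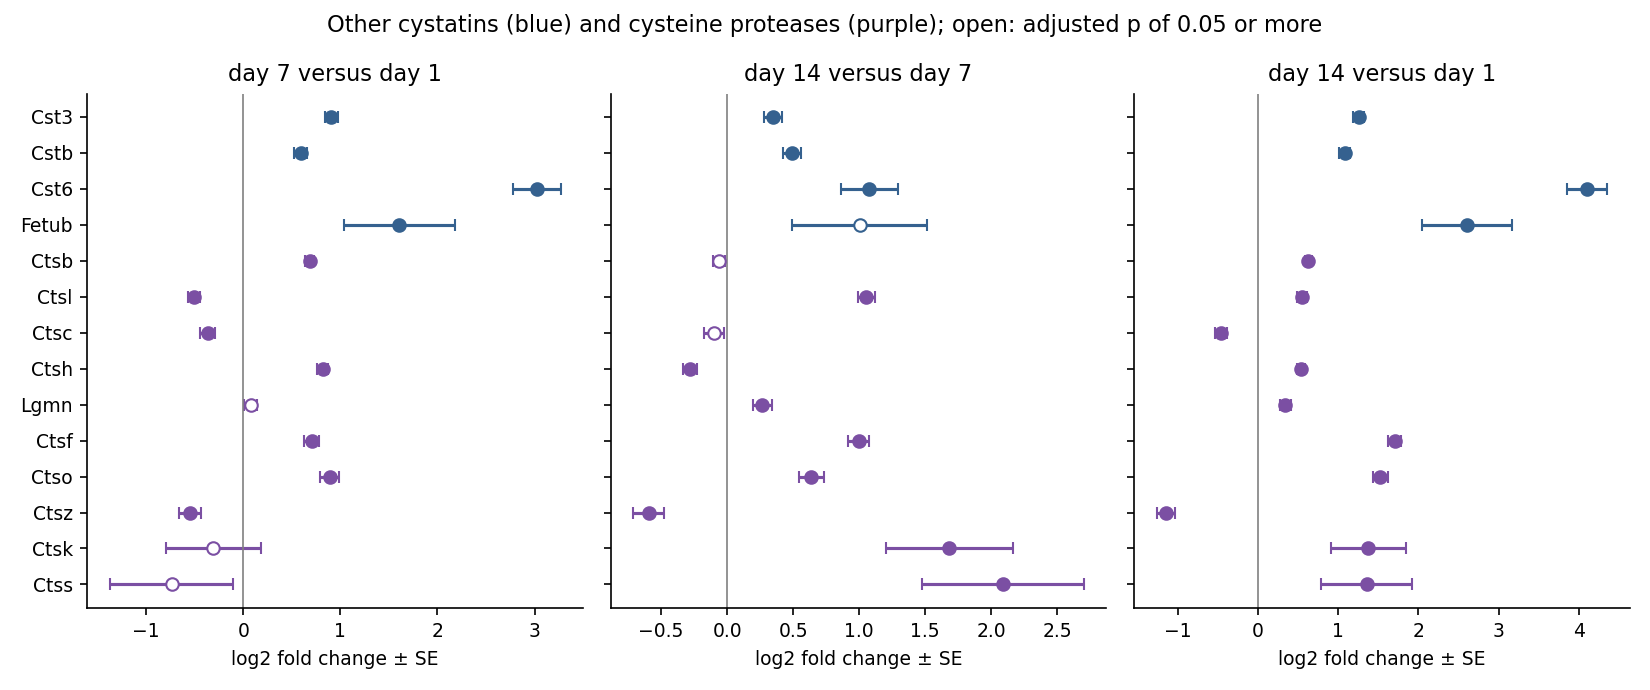
Log2 fold change with SE (x axis) of 4 other cystatin genes (blue) and 10 cysteine protease genes (purple) in the 3 comparisons, which share libraries. Filled points passed edgeR's test at an adjusted p under 0.05, and the panels have separate scales. Cstb, Cst3 and Cst6 lie to the right of 0 in all 3 panels, with Cst6 farthest at 4.10 for day 14 against day 1.

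Genes of the cornified envelope, into which human stefin A is built, mostly rose when the stefin A genes were low. Of 16 genes tested, 6 rose and 3 fell in day 7 against day 1. In day 14 against day 7, 13 rose and 2 fell, and in day 14 against day 1, 12 rose and 2 fell. The medians were 0.28, 1.39 and 1.42 on the log2 scale. Of all genes, 25.5%, 32.5% and 35.5% were called higher in these comparisons. Ppl, which encodes the plakin periplakin, rose to 975 ± 40.1 CPM at day 14, against 466 ± 11.2 at day 7 (1.07 ± 0.05). Evpl, its partner envoplakin, rose to 640 ± 23.3 CPM, against 342 ± 9.82 (0.90 ± 0.06), and Sbsn, suprabasin, to 466 ± 29.5 CPM, against 157 ± 4.38 (1.57 ± 0.11). Tgm3, a transglutaminase that crosslinks the envelope, went with Stfa3 in direction in day 7 against day 1 and in day 14 against day 7. It averaged 132 ± 26.3, 670 ± 18.3 and 115 ± 11.3 CPM over days 1, 7 and 14, and fell by 2.54 on the log2 scale in day 14 against day 7 (edgeR adjusted p = 8.3e-07). In day 14 against day 1 Tgm3 did not pass, with log2 fold changes from -0.30 to -0.027 when libraries were left out. Under library totals alone it passed there (-0.46, edgeR adjusted p = 0.013).

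Keratins and signals of stressed epidermis, among which mouse stefin A transcripts are often listed, moved in both directions. Of 16 tested, 5 rose and 4 fell in day 7 against day 1, 1 rose and 8 fell in day 14 against day 7, and 2 rose and 9 fell in day 14 against day 1. The medians were -0.18, -0.50 and -1.09. Of all genes, 25.5% were called higher and 24% lower in day 7 against day 1, 32.5% and 35.1% in day 14 against day 7, and 35.5% and 38.4% in day 14 against day 1, so the counts of day 7 against day 1 lay near the background. Krt17 fell to 634 ± 115 CPM at day 14, against 953 ± 166 at day 7 (-0.59 ± 0.15, edgeR adjusted p = 0.011). Sprr2a1, one of the small proline-rich envelope proteins with near-identical copies, fell to 11.6 ± 2.41 CPM, against 91.5 ± 9.68 (-2.98 ± 0.17). Il1f9, the cytokine IL-36 gamma, fell to 8.29 ± 1.04 CPM, against 19.4 ± 0.96 (-1.23 ± 0.10), and the chemokine gene Ccl20 to 5.90 ± 0.13 CPM, against 12.03 ± 0.46 (-1.03 ± 0.15). Krt6a fell to 47.6 ± 2.31 CPM, against 62.8 ± 4.38 (-0.40 ± 0.12, edgeR adjusted p = 0.014), a call lost without library 6 of day 14 (adjusted p = 0.055). In day 7 against day 1, Sprr2a1, Il1f9 and Ccl20 rose, as values of 1.15, 1.29 and 3.19 on the log2 scale, and Krt6a and Krt6b fell by 0.82 and 2.57.

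Among 9849 genes with enough signal, those whose pattern lay closest to that of the summed 4 genes were ranked by the root mean square difference of log2 CPM over the 9 libraries, each gene centred on its own mean. BC100530 was nearest with 0.328, and the others were not stefin A genes. Lrrn1, a neuronal leucine-rich repeat gene, differed by 0.567 and averaged 52.7, 75.1 and 2.58 CPM over days 1, 7 and 14. Cyp2f2, a cytochrome P450, differed by 0.667 and averaged 17.7, 49.4 and 0.931 CPM. Fras1, of the epidermal basement membrane, differed by 0.728 and averaged 385, 168 and 2.90 CPM. The gene 4631405J19Rik (0.797) and the melanocyte enzyme gene Tyrp1 (0.903) followed. Csta1 stood at rank 14 and BC117090 at rank 38. The libraries fall into 3 days, so many genes that were high at 2 of the days and low at day 14 come close on this measure.

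**Figure D5:**
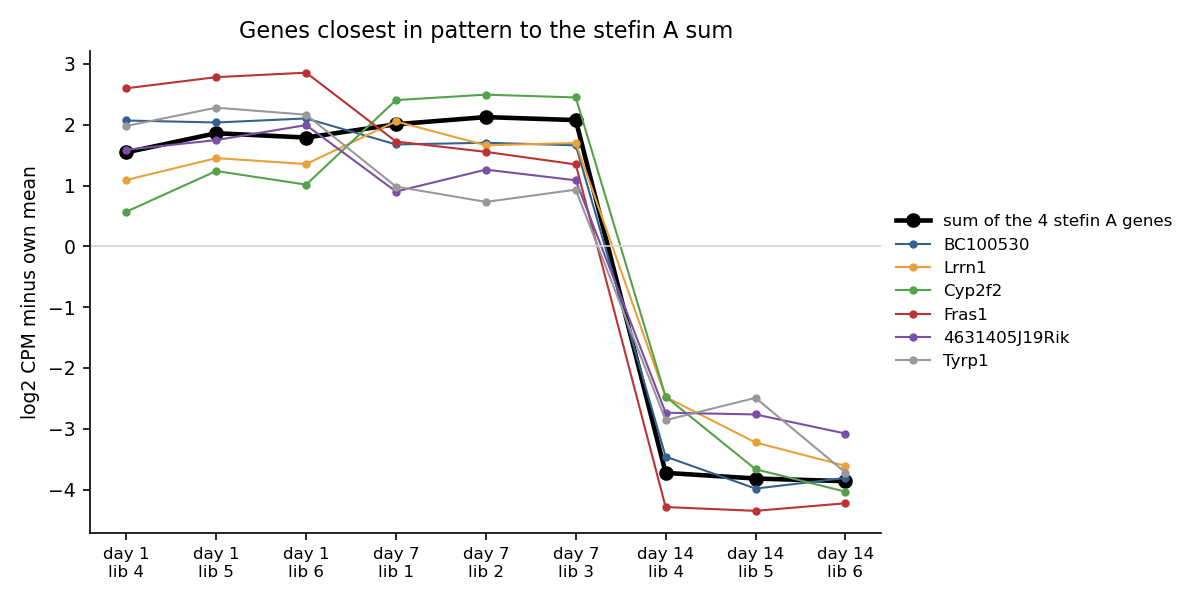
Log2 CPM minus the gene's own mean (y axis) in the 9 libraries (x axis) for the sum of Stfa1, Stfa2, Stfa2l1 and Stfa3 (black) and the 6 genes nearest to it. All 7 lines lie above 0 at days 1 and 7 and below 0 at day 14, and BC100530 runs nearest to the sum, with a root mean square difference of 0.328.

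The stefin A sum kept its direction under each scaling. Under scaling by library totals alone, the median log2 fold change over all genes was -0.10 in day 7 against day 1, -0.21 in day 14 against day 7 and -0.32 in day 14 against day 1, and 35.7%, 34.9% and 31.9% of the called genes were higher, against 51.5%, 48.1% and 48.1% under TMM. The stefin A sum was then -6.05 in day 14 against day 7 and -5.81 in day 14 against day 1.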

How the data were processed

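The tools named in the submitters' processing notes are bcl2fastq 2.20.0, Trimmomatic, HISAT2 2.1.0 and also StringTie 1.3.4d, with the build mm10. How reads were counted, and with which strand setting and annotation, is not given in the sources used here. The authors deposited whole-number read counts per gene without normalisation, per the file headers. A further 18 columns of values were not used. The 3 libraries taken as day 1 have headers reading D0, and they were placed there since the remaining headers name days 7 and 14. Library numbers are those of the headers.

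Counts were TMM-scaled and fitted with edgeR 4.0.16 in R 4.3.3 (filterByExpr, robust quasi-likelihood F test, 1 model over the 9 libraries with day as a factor, Benjamini-Hochberg adjustment over 14507 genes, threshold 0.05); the steps were tested on simulated data. A sum replaced its genes as 1 row of the fit. DESeq2 1.42.0, other scalings and filters, leaving out each library and, for day 14 against day 1, a block on the library number were alternatives. Likeness used genes averaging 10 CPM or more at the day where they were highest, and a prior count of 2. Windows came from RefSeq (GRCm38.p6) and transcripts from GENCODE M21, matched by the RefSeq accessions of the table.

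The 4 genes and all lists were chosen with earlier results of these data known. Named were these 4, all other stefin A genes measured, up to 5 called genes of highest mean CPM per list and comparison, fixed cell markers, the 6 nearest genes and 3 neighbours on each side.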

Additional observations from a re-analysis of the deposited data

How the results depend on the processing

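The headers give days 1 and 14 the same library numbers and day 7 others, so a replicate block could be fitted for day 14 against day 1 alone, an alternative chosen after seeing the data. Over those 6 libraries edgeR called 10170 genes with the block and 10531 without it, and the stefin A sum was -5.54 with the block. Libraries of the same number correlated in their deviations from the day means at 0.023, 0.019 and 0.11, and not every library correlated best with its own number, so they are taken to share only a number. Under the block Col1a1 reversed (0.14) without a call. The alternative on the authors' length-normalised values was not run, since those columns were not used. The sum of the 4 stefin A genes kept its direction in each comparison and under each alternative run. Scaling by library totals alone moved it to -6.05 on the log2 scale in day 14 against day 7 and to -5.81 in day 14 against day 1. Summing all 10 stefin A genes, an alternative chosen after seeing the data, gave -5.71 in day 14 against day 7 and 0.11 in day 7 against day 1. Leaving out 1 library at a time gave from 0.25 to 0.40 in day 7 against day 1, from -5.92 to -5.85 in day 14 against day 7, and from -5.64 to -5.49 in day 14 against day 1. The counts of all genes called stayed within 1.5 times of those under TMM, from 6096 to 7268 in day 7 against day 1 when libraries were left out. For the 45 other genes named, each in all 3 comparisons, and for Stfa1, Stfa2 and Stfa3, 1956 of 2034 alternative values kept direction and call, 28 lost the call, 27 gained it, 4 moved by more than the spread between libraries, and 19 reversed. None of the 19 was of a difference called by edgeR under TMM. The 4 that moved were of Stfa1 and Stfa3 under library totals alone, and they kept their direction. Stfa1 moved to -6.09 in day 14 against day 1 and to -0.90 in day 7 against day 1. Stfa3 moved to -5.75 in day 14 against day 1 and to -6.16 in day 14 against day 7. Scaling by library totals alone reversed Il1f9 in day 14 against day 1 (-0.21) and, in day 7 against day 1, Krt5 (-0.067), Krtdap (-0.039) and Lgmn (-0.0234). With libraries left out, values crossed 0 in day 7 against day 1 for Ccdc58 (from -0.052 to 0.045), Col1a1 (from -2.78 to 0.42), Krt1 (from -0.23 to 0.022) and Krt10 (from -0.21 to 0.088), in day 14 against day 7 for Krt16 (from -0.32 to 0.052) and Krt71 (from -1.41 to 1.01), and in day 14 against day 1 for Col1a1 (from -0.67 to 0.99) and Il1f9 (from -0.050 to 0.12). Those that gained a call include Ctsb, Ctsc and Wdr5b in day 14 against day 7, under library totals alone. Those that lost it include Ppl in day 7 against day 1, Krt16 in day 14 against day 1 and, under library totals alone, Krtdap. The cause of these changes was not tested. Depth limits Stfa2l1, with at most 11 counts in any library, and Stfa2 at day 14, with 0 counts in each.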
